A study of Homo sapiens with 6 samples.

Results

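Large clusters of H3K27ac peaks that were wide in one T-cell acute lymphoblastic leukaemia (T-ALL) line and narrow or missing in the other were described in Jurkat and 6T-CEM cells. In each deposited peak list, peaks 12.5 kb or less apart on chromosomes 1 to 22 and X were joined, and joined spans of the 3 lists that overlapped were merged. The members were chosen by the bases under peaks in the merged spans. A 6T-CEM-biased span held 6 kb or more in 6T-CEM and at least 3 times the bases of each Jurkat library, and a Jurkat-biased span held 6 kb or more in both Jurkat libraries and in each at least 3 times the bases of 6T-CEM. Of 17136 merged spans, 253 were 6T-CEM-biased (1.48%) and 24 were Jurkat-biased (0.14%), 277 in all. They made up 21.3% of the 1186 spans with 6 kb or more in 6T-CEM and 6.27% of the 383 with 6 kb or more in both Jurkat libraries. The size of the contrast is therefore how the spans were selected and is no result.

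Both Jurkat and 6T-CEM are established human T-ALL lines, and the series held 6 samples: H3K27ac from Jurkat (2 libraries) and from 6T-CEM (1 library), and 3 IgG samples, which were not analysed here. The series text speaks of a treatment (10 nM, 24 h) and its title of GNE-987, a BET bromodomain inhibitor. None of the sample labels says which cells, if any, were treated, so treatment and line cannot be told apart. Nothing in the labels tells if the Jurkat pair were separate cultures or how either line was grown. With a single 6T-CEM library, whose own spread is unknown, no test between the lines was made, and every value below is a description of these 3 lists.

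H3K27ac is acetylation of lysine on histone H3, found at active promoters and enhancers. Dense clusters of such enhancers, often called super-enhancers, tend to lie at genes that define a cell's identity. In T-ALL, thymocyte development is arrested, and clusters of this kind are known at transcription factor genes such as TAL1, MYB, RUNX family members and GATA3.

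The lists differed in length. Jurkat replicate 1 held 16159 peaks over 16.2 Mb, Jurkat replicate 2 held 32097 over 27.6 Mb, and 6T-CEM held 35154 over 34.3 Mb. The number of reads behind them is unknown. Marker genes of T cells had a peak within 1 kb of a gene end for 6 of 8 genes in the first Jurkat list, 8 of 8 in the second and 7 of 8 in 6T-CEM. In the same order, for B cells these numbers were 2, 3 and 3 of 8, for myeloid cells 1, 4 and 3 of 9, for NK cells 1, 3 and 2 of 8, for non-blood tissues 0, 1 and 1 of 9, and for erythroid and megakaryocytic cells 0 of 8 in every list. No marker gene of these lists lay in a member other than CD3E, the CD3 epsilon chain, in a Jurkat-biased span.

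The replicate difference was large beside the difference between lines. Applied between the Jurkat libraries, the same 6 kb and 3-fold rule found 440 of 1016 spans (43.3%) with the excess in replicate 2 and 27 of 460 (5.87%) with the excess in replicate 1. Against replicate 1 alone, 708 of 1186 spans (59.7%) were wide in 6T-CEM, and against replicate 2 alone 269 (22.7%) were. The 253 spans thus rest mainly on the limit set by replicate 2, the longer Jurkat list. In the other direction, 63 of 460 spans (13.7%) were wide in replicate 1 against 6T-CEM, and 136 of 1016 (13.4%) in replicate 2. A Jurkat-biased span needed 6 kb in both Jurkat lists and a 6T-CEM-biased span in a single list. The numbers 253 and 24 are therefore not alike in kind. With covered bases scaled to the mean total of the 3 lists, the numbers became 122 and 49 in place of 253 and 24, and the whole of the 24 and 122 of the 253 stayed members. The factors were 1.606 and 0.942 for the Jurkat replicates and 0.76 for 6T-CEM. With these none of the 24 could drop out and no 6T-CEM-biased span could be added, so the 24 staying is no result.

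**Figure D1:**
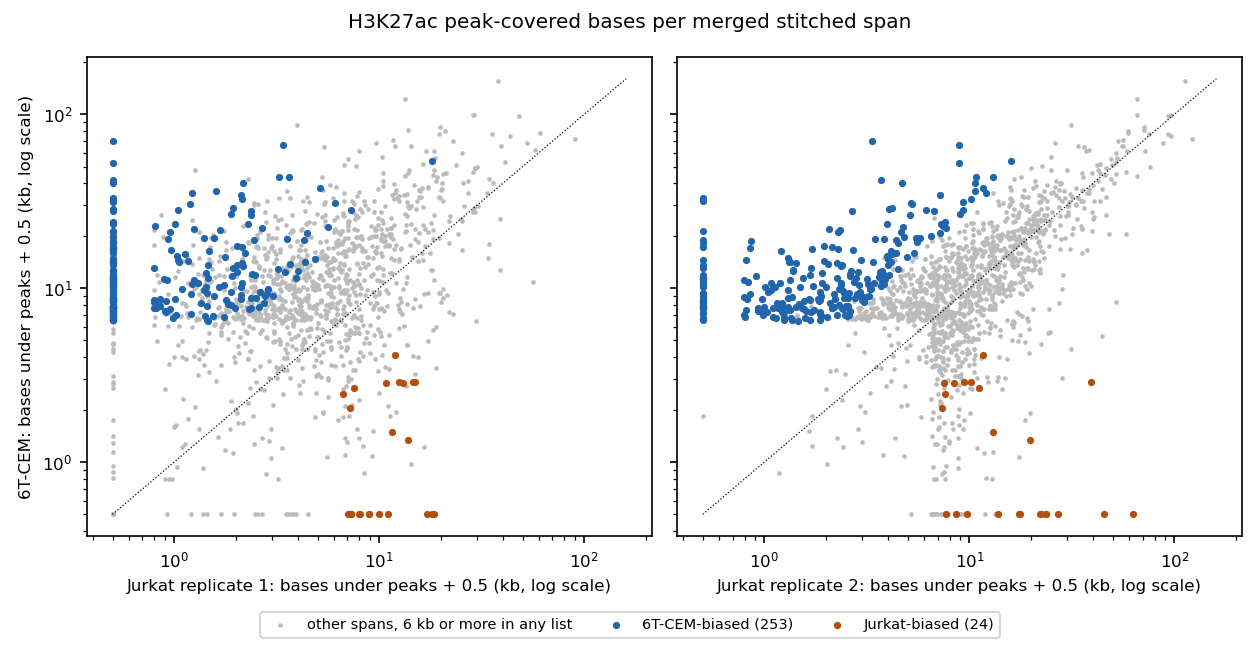
Bases under H3K27ac peaks in each merged span with 6 kb or more in any list, 6T-CEM on the vertical axis and a Jurkat library on the horizontal axis (kb, with 0.5 added, log scales, dotted line at equality). Blue points are the 253 6T-CEM-biased spans and brown points the 24 Jurkat-biased spans, chosen by these values. In the left panel 134 of the blue points stand at 0 bases in Jurkat replicate 1, and in the right panel 46 stand at 0 in replicate 2.

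Promoters inside leading spans show the DNA that carried a peak in one line and none in the other. Printed are the 250 bases before an annotated start (RefSeq, GRCh38.p14), 5′ to 3′ on the gene's strand, for 3 genes with a peak at the start in 6T-CEM only and 3 with a peak there in both Jurkat libraries only. Capitals mark matches, on either strand, to the motifs searched. For RUNX factors the letters were TGTGGT. For ETS factors they were CAGGAAG or else CCGGAAG. For helix-loop-helix factors E-boxes spelled CAGCTG or else CAGATG were searched. The GATA motif was AGATAA, and the motif of TCF and LEF was ATCAAAG. The motif of AP-1 was TGANTCA, that of MYB was TAACNG, and that of RBPJ was TGGGAA. UBASH3B was read from chr11:122655472-122655721 (plus strand), CXXC5 from chr5:139659305-139659554 (plus), CELA1 from chr12:51346680-51346929 (minus), TAL1 from chr1:47231716-47231965 (minus), DNTT from chr10:96304184-96304433 (plus) and SYK from chr9:90801350-90801599 (plus).
UBASH3B: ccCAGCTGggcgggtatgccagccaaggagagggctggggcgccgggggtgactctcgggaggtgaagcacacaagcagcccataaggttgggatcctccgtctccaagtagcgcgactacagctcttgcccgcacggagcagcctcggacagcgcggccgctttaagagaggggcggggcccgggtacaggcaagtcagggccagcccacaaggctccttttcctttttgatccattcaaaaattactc
CXXC5: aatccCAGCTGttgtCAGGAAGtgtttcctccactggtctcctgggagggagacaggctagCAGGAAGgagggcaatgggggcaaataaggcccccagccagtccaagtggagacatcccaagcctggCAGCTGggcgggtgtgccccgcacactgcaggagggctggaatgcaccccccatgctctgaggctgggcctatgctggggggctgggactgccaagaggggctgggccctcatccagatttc
CELA1: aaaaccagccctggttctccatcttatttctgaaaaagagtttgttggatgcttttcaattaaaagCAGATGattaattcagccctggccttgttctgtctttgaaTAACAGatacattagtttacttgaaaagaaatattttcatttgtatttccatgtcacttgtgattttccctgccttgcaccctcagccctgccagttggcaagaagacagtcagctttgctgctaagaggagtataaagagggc
TAL1: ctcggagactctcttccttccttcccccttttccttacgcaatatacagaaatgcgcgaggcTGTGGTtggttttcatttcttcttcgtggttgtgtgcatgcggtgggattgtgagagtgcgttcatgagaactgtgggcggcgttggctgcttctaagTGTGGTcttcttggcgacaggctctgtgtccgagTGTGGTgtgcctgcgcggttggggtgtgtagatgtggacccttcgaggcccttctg
DNTT: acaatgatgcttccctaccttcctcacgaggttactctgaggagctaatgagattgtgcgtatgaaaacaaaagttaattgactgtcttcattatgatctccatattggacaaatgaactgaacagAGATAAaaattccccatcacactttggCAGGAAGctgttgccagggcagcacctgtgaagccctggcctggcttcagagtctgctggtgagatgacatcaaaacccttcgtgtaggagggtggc
SYK: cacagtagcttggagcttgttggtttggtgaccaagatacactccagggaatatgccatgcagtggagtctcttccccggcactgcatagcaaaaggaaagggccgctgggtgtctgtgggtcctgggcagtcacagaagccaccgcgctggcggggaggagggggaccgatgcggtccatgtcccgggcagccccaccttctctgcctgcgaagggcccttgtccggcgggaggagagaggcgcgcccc
The authors' fold of the 6T-CEM peak at the start was 7.91 at UBASH3B, 8.3 at CXXC5 and 8.54 at CELA1. At TAL1 the start lay under Jurkat peaks of 6.25 (replicate 1) and 11.79 (replicate 2), at DNTT of 6.66 and 7.38, and at SYK of 4.85 and 8.58. The 6 windows were not alike in base composition: UBASH3B held 15 CG dinucleotides, TAL1 14 and SYK 13, against 2 in CXXC5, 3 in DNTT and 0 in CELA1. These numbers belong to the printed starts and not to the genes, since only a start with the highest fold was printed. Other marked starts held 33 (139648951) and 2 (139675443) at CXXC5, 24 (47232335) at TAL1 and 32 (90801819) at SYK. TAL1 held TGTGGT 3 times, CXXC5 held CAGGAAG 2 times and CAGCTG 2 times, DNTT held CAGGAAG and AGATAA once each, UBASH3B held CAGCTG once, CELA1 held CAGATG and TAACNG once each, and no searched motif was found in SYK.

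Of the 334 protein-coding genes that members overlapped, 270 had a promoter in the sequence table, which covers 15811 of 19970 protein-coding genes. In the 6T-CEM-biased spans 155 promoters of 113 genes lay at a start under a 6T-CEM peak, and 61 of these genes (54.0%) had no such start under a peak of either Jurkat list. That share was 15.2% of 882 genes in the other spans with 6 kb or more in 6T-CEM and 19.6% of all 4741 genes with a start under a 6T-CEM peak, and the members were selected for low Jurkat coverage. Windows of the same gene could overlap, as at PACSIN2 with starts at 42959856 and 42959881, so a motif site can count more than once. CAGGAAG was in 19.4% of the 155 promoters, in 14% of 1168 promoters marked in the other spans with 6 kb or more in 6T-CEM, and in 10.4% of all 22131 promoters. In percentage points the other motifs stood closer to all promoters: TGTGGT 9.68% against 9.36%, CCGGAAG 11% against 10.7%, CAGCTG 14.8% against 13.7%, CAGATG 10.3% against 10.2%, AGATAA 5.81% against 7.09%, ATCAAAG 0.645% against 1.78%, TGANTCA 4.52% against 5.35%, TAACNG 11.6% against 16.1% and TGGGAA 18.1% against 20.1%. By ratio ATCAAAG stood farther from all promoters than CAGGAAG did, but it was in 1 of the 155. Beside the 1168 promoters, AGATAA (3.51% there), CAGCTG (13.1%) and TGANTCA (4.37%) were higher in the members too, and the rest were lower. No motif share was tested. The Jurkat-biased spans held 9 marked promoters of 7 genes, of which 5 had no 6T-CEM peak at a start. No share over other spans was computed in this direction, and the members were selected for low 6T-CEM coverage. The 5 of 7 is therefore no result.

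The 253 6T-CEM-biased spans were 36.5 kb long in the median (7.4 to 200.3 kb) and held a median of 10 peaks and 10.12 kb under peaks in 6T-CEM (6.00 to 69.49 kb). Jurkat replicate 1 had no peak in 134 of them, replicate 2 none in 46, and both none in 41. Replicate 2 had more covered bases than replicate 1 in 176 spans and fewer in 36. The higher Jurkat library held at least 3 times the bases of the lower in 178 of the 253. That number includes the 41 spans where both held 0 bases and did not differ. On the log2 scale with 500 bases added, the ratio of 6T-CEM to the Jurkat mean had a median of 2.85, beside 0.64 over the 1523 spans with 6 kb or more in any list and 0.30 over all merged spans. The ratio of Jurkat replicate 1 to 2 had a median of -0.87, beside -1.13 over the same 1523 spans and 0 over all. Of the Jurkat peaks left in these spans, 220 of 234 of replicate 1 (94.0%) and 728 of 815 of replicate 2 (89.3%) overlapped a 6T-CEM peak. The same shares were 83.3% and 71.5% in the 933 other spans with 6 kb or more in 6T-CEM, and 72.0% and 57.1% over all spans. Since the rule asks for wide coverage in 6T-CEM and little in Jurkat, the gap between these shares is no independent result. By a threshold set on width times fold, 6T-CEM counted 111 of the spans as large, Jurkat replicate 1 counted 2 and replicate 2 counted 1.

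The 15 spans with the widest gap to the higher Jurkat library led the 6T-CEM direction. The first lay within XXYLT1, a xylosyltransferase that extends sugars on Notch receptors, at chr3:195070830-195271119. It held 0 bases in the list of Jurkat replicate 1, 2843 in that of replicate 2 and 69491 in that of 6T-CEM, where 59 peaks lay in 200290 bases. UBASH3B, a phosphatase that dampens T-cell receptor signalling, lay in a span at chr11:122655329-122807939 with 2910, 8354 and 65845 bases in the same order. That span ranked 13 of 13075 stitched spans of 6T-CEM by width times fold, but 1737 and 685 in the Jurkat replicates. Both spans thus held many separate peaks in 6T-CEM (59 and 54), against 0 and 2 in Jurkat replicate 1 and 7 and 11 in replicate 2.

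MVB12B, a subunit of the ESCRT-I sorting complex, enclosed a span with 0, 8350 and 52239 bases (always in the order replicate 1, replicate 2, 6T-CEM), and a second member within it brought the gene's sums to 951, 10417 and 59640. The span at PTPRF, a receptor tyrosine phosphatase, held 0, 3209 and 41440 bases, and the one at CXXC5, a zinc-finger protein, 0, 4161 and 39953. XYLT1, which starts glycosaminoglycan chains on proteoglycans, enclosed a span with no base in either Jurkat library and 31403 in 6T-CEM. In these 4 spans replicate 1 had no peak, and replicate 2 went from none at XYLT1 to 16 peaks at MVB12B.

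The span of GALNT6 (which starts mucin-type O-glycans), SLC4A8, BIN2 and CELA1 differed from these. It held 17523 and 15462 bases in the Jurkat replicates and 53089 in 6T-CEM, and its widest 6T-CEM peak, of 14177 bases, was the widest in any 6T-CEM-biased span. The gene ends of GALNT6, SLC4A8 and BIN2 lay under peaks in all 3 lists, and that of CELA1, a member of the elastase family, in 6T-CEM only. It is one of the 2 members called large in Jurkat replicate 1.

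Of the remaining leading spans, the one nearest to CPN2, described with chromosome 3 below, held no base in either Jurkat library. The others were narrower in Jurkat without being empty. SMPD3, a neutral sphingomyelinase, shared its span with PRMT7 at 2726, 10280 and 42856 bases. SUFU, a suppressor of Hedgehog signalling, and TRIM8 lay in a span of 3116, 12570 and 43201. For RASSF4 the values were 1656, 10089 and 39550, for SLC25A42, the mitochondrial coenzyme A carrier, 1615, 6660 and 33704, for CORO2A 4659, 11112 and 37301, for FBRSL1 1093, 10083 and 35807, and for ATRN 694, 4767 and 29830. In every one of these 7 spans Jurkat replicate 2 held more than replicate 1, so replicate 2 set the distance to 6T-CEM.

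**Figure D2:**
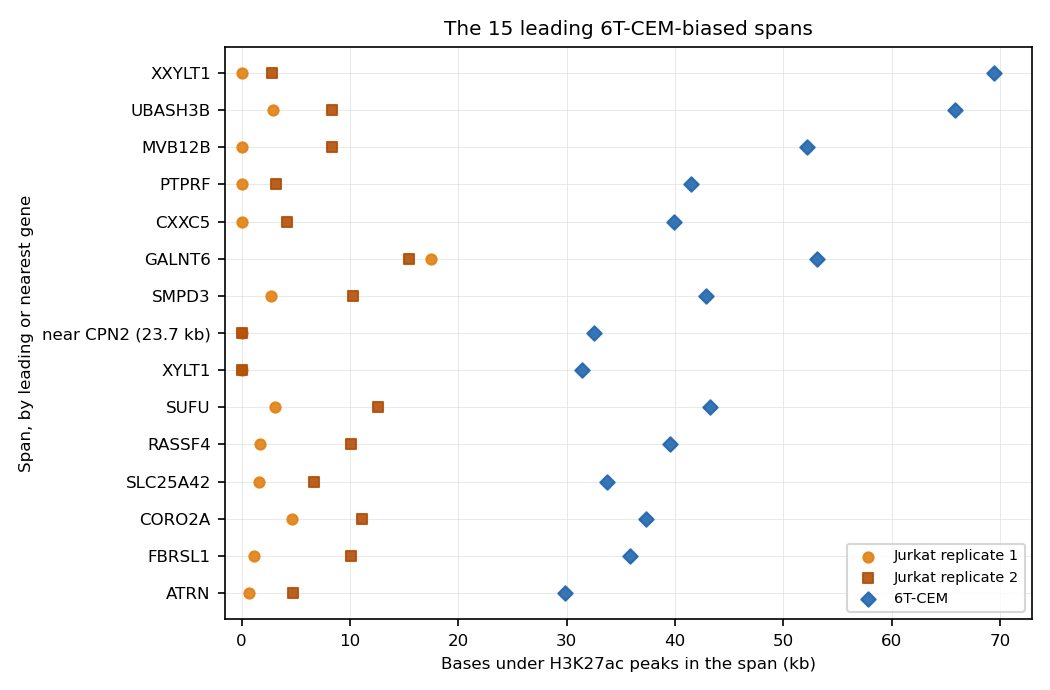
Bases under H3K27ac peaks (kb) in the 15 6T-CEM-biased spans with the widest gap to the higher Jurkat library, 1 row per span and 1 symbol per library, named by the gene with most covered bases or, where no coding gene overlapped, by the nearest one. The 6T-CEM values run from 29830 to 69491 bases and the highest Jurkat value is 17523 bases, at GALNT6.

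Several 6T-CEM-biased spans lay along the end of the long arm of chromosome 3, a group picked out after the values were seen. From ETV5 to TNK2 there were 7, and Jurkat replicate 1 was at 0 in all but the one at CRYGS (297 bases). The span nearest to HES1, a Notch target that encodes a transcriptional repressor, lay 55052 bases from the gene at chr3:194193784-194226236 and held 0, 0 and 10459 bases. Its neighbour at chr3:194247753-194316096 overlapped long noncoding RNA genes, LINC00887 among them, but no coding gene, with CPN2 at 23672 bases the nearest. It held 26 peaks over 32539 bases in 6T-CEM and none in either Jurkat library, and both spans lay in a 579.0 kb stretch without a Jurkat peak. ETV5, an ETS factor downstream of ERK, had 0, 316 and 13977 bases in its span, and TNK2, a non-receptor tyrosine kinase, 0, 0 and 11331.

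Among T-lineage and T-ALL transcription factors, 3 of 34 genes were overlapped by a 6T-CEM-biased span, beside 1.57% of all coding genes (313 of 19970), and 2 by a Jurkat-biased span, beside 0.105% (21 genes). MYB, a proto-oncogene of early blood cells, lay in a span with 5133 and 4238 bases in the Jurkat replicates and 21942 in 6T-CEM. The GFI1 span, at a gene for a repressor of blood progenitors, held 2128, 543 and 8947. RUNX3, of the RUNX family, had 0, 1074 and 6263, just above the 6 kb minimum. With peaks joined at 20 kb its log2 ratio of 6T-CEM to the Jurkat mean fell from 2.71 to 0.05, so its bias held for the 12.5 kb span and not for the wider one. GATA3, a factor of T-cell commitment, was the gene nearest to a span 6875 bases away with 0, 469 and 8194 bases, and IKZF1 to one 21073 bases away with 703, 1364 and 6644. At these 5 genes replicate 1 was the higher Jurkat library at MYB and GFI1 and replicate 2 at the rest.

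The other gene lists held few 6T-CEM members, to be read beside the 1.57% of all coding genes overlapped in this direction. Of 22 NOTCH pathway genes, TLE1, a Groucho-family corepressor, was overlapped: its span held 0, 0 and 9597 bases within 1471.2 kb that had no Jurkat peak. Of 38 genes of T-cell receptor signalling and surface, there were 3: CD226, a costimulatory receptor (0, 871 and 12033), CD44, an adhesion receptor (1618, 989 and 9619), and PRKCB (0, 2000 and 7349). Of 12 immature thymocyte genes there was CD38 (407, 0 and 7944), of 29 cytokine receptor and JAK-STAT genes IL21R (0, 3255 and 10532), and of 21 cell cycle and apoptosis genes DAPK1, a death-associated kinase with 2 members (sums of 340, 0 and 18379). ETV5 and FOSL2, an AP-1 subunit (0, 3573 and 28024), were the 2 of 25 genes of RAS-ERK feedback and growth factor receptors. No gene of the homeobox (15), chromatin regulator (20), homing and adhesion (18) or TGF-beta and WNT (16) lists was overlapped in this direction.

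Immunoglobulin heavy-chain segments, which rearrange in B cells, held 6 6T-CEM-biased spans on chromosome 14. They summed to 13454 and 10093 bases in the Jurkat replicates and 68018 in 6T-CEM, with 16, 16 and 68 peaks. A span over T-cell receptor beta variable segments held 1641, 1634 and 16747 bases, and 2 spans over heavy-chain orphan segments on chromosome 15 summed to 1765, 2443 and 21192. The Jurkat libraries had as many peaks as each other in the heavy-chain spans, and replicate 1 covered more bases. Values at such related segments are uncertain where a read matches several of them, since no label used here says how those reads were placed.

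More than 1 6T-CEM-biased span lay in each of 12 genes. XYLT1, COL23A1, a transmembrane collagen, and CDH4, a cadherin, held 3 each, with sums of 0, 665 and 48439 bases at XYLT1, 0, 351 and 42055 at COL23A1 and 0, 11988 and 50815 at CDH4. ZBTB16, the PLZF factor of innate-like lymphocytes, held 2, with 0, 1794 and 25739. At these 4 genes peaks more than 12.5 kb apart left neighbouring clusters, and replicate 1 had no base in any of them.

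Some members were isolated from the other line's peaks, which the rule favours by asking for little coverage there. No share over other spans is given beside these numbers. Wholly inside a stretch of 500 kb or more without any Jurkat peak lay 11 of the 253 spans: PARD3, a polarity protein, with 13106 bases in 6T-CEM, ST18 with 11240, a DAPK1 span with 10992, NBAS with 10297, TLE1, TEC, a kinase of antigen receptor signalling, with 7977, GRAMD1B with 6142, the 2 spans between HES1 and CPN2, and 2 without a coding gene whose nearest were AFG2A (7319) and MYT1L (8010). The longest of these stretches was 4578.2 kb, around the AFG2A span, where a single 6T-CEM peak reached a fold of 20.99. Why these stretches held no Jurkat peak was not tested.

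The 24 Jurkat-biased spans had a median length of 35.3 kb (15.2 to 213.4 kb) and medians of 9.87 and 12.93 kb under peaks in replicates 1 and 2, with 6T-CEM at 0 in 13. Replicate 2 was higher in 17 and replicate 1 in 7, and they were 3-fold or more apart in 3. All 33 peaks that 6T-CEM had in these spans overlapped a Jurkat peak, beside 75.8% of its peaks in the 357 other spans with 6 kb or more in both Jurkat libraries and 54.6% over all spans, under the same limit of the rule. Large spans by width times fold numbered 18 in replicate 1, 19 in replicate 2, 14 in both and 0 in 6T-CEM.

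TAL1, a helix-loop-helix factor switched on in many T-ALL, lay in a Jurkat-biased span at chr1:47221448-47246537. Replicate 1 covered 13235 bases there with 11 peaks, replicate 2 covered 19186 with 7, and 6T-CEM covered 832 with 1. That 6T-CEM peak, at chr1:47230854-47231685 with a fold of 5.73, ended 30 bases short of the start printed above, which itself lay under no 6T-CEM peak. Thus 6T-CEM had a single peak beside the promoter where the Jurkat libraries had peaks on both sides of it. BCL11B, a factor that fixes T-cell identity, enclosed a span at chr14:99177923-99214293 with 6764, 16875 and 0 bases and lay in a 118.9 kb stretch without a 6T-CEM peak. With peaks joined at 20 kb the log2 ratio at BCL11B moved from -4.623 to -1.001, and the span was no longer called. The absence of 6T-CEM bases thus held for the 12.5 kb span and not for the wider one. The BCL11B span was not called with peaks of −log10 q of 5 or more either.

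Genes of immature thymocytes were among the Jurkat members. DNTT, the terminal transferase that adds bases during receptor rearrangement, had 18098, 8126 and 0 bases at chr10:96294220-96320596. CD1B and CD1E, lipid-antigen-presenting molecules of cortical thymocytes, shared a span of 14159, 8881 and 2379 bases, in which both Jurkat libraries had their highest peak fold of any member in this direction (16.29 and 19.1). DNTT, CD1B and CD1E made 3 of 12 genes of the immature thymocyte list, beside 0.105% of all coding genes (21 of 19970), with CD1B and CD1E in the same span. At all of them replicate 1, the shorter list, held more than replicate 2.

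Of the T-cell receptor signalling list 2 of 38 genes were Jurkat-biased, beside 0.105% of all coding genes. The SYK span, at a kinase used by the pre-T-cell receptor, held 7490, 7174 and 0 bases, and a second span 59918 bases beyond the gene held 6518, 9175 and 0. Both lay in 1520.7 kb without a 6T-CEM peak. CD3E had 10265, 7049 and 2341 and stood just inside the ratio limit, with a 6T-CEM peak at a gene end as well, so the gene was marked in every list. With peaks joined at 20 kb the log2 ratio at CD3E moved from -1.69 to -0.92, and the span was no longer called. IFNAR2, the type I interferon receptor subunit, was the 1 of 29 cytokine receptor genes, with 11459, 11203 and 3625.

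Of the 16 genes of TGF-beta and WNT signalling 2 were Jurkat-biased, beside 0.105% of all coding genes. SMAD6, an inhibitory SMAD, had 14412, 38721 and 2391 bases. PMEPA1, a negative regulator of the same pathway, enclosed a span of 6809, 44782 and 0, and the span first in this direction, at chr20:57762578-57975973, lay 51106 bases from PMEPA1 with 17545, 62076 and 0. The log2 ratio of replicate 1 to replicate 2 (500 bases added to each) was -1.40 at SMAD6, -2.63 in the PMEPA1 span and -1.79 beside it, so most of the covered bases came from 1 replicate.

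PRKCA, the alpha isoform of protein kinase C, enclosed 2 members with sums of 25102, 48493 and 0 bases in 28, 69 and 0 peaks, inside 2064.5 kb without a 6T-CEM peak. The same pattern of 0 bases in 6T-CEM held at FRMD4A (10479 and 13269 in Jurkat), SPSB4 (9476 and 21623), and MOCS1 with DAAM2 (8445 and 23025). FRMD4A and MOCS1, like both SYK spans, the PMEPA1 pair and PRKCA, lay wholly in a stretch of 500 kb or more without a 6T-CEM peak, 8 of the 24 in all. The rule favours this too, and in this direction a single list had to be free of peaks there. Spans with no coding gene were those nearest to RTL6 (7524, 23156 and 0), NXT1 (6614, 17220 and 0) and CD83 (11973, 9627 and 2373), besides the ones near PMEPA1 and SYK. A 6T-CEM-biased span (0, 301 and 6281 bases) lay beyond the one near CD83, 518559 bases from that gene. It had the highest 6T-CEM peak fold of any member, 26.91. Members of both directions thus had CD83 as the nearest coding gene. With peaks joined at 20 kb the log2 ratio of the Jurkat-biased span near CD83 moved from -1.98 to -1.04, and that span was no longer called. The rest of the Jurkat-biased spans had some 6T-CEM bases: GASK1A (11054, 12586 and 993), WWOX (12532, 7887 and 2351), CEP70 (6690, 6883 and 1554), TMED3 (7005, 10656 and 2152) and BRCA1 (6150, 7135 and 1977).

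**Figure D3:**
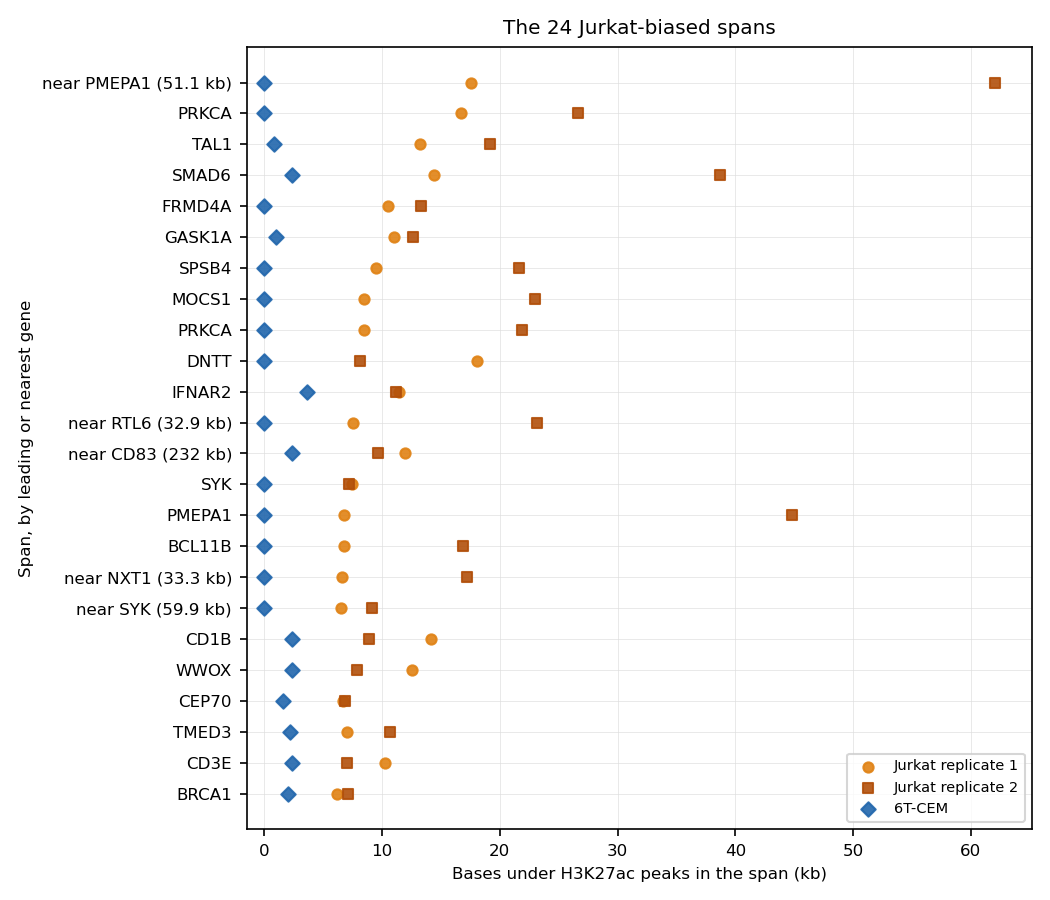
Bases under H3K27ac peaks (kb) in the 24 Jurkat-biased spans, in order of the gap between the lower Jurkat library and 6T-CEM, with 1 symbol per library. The 6T-CEM values run from 0 to 3625 bases, while Jurkat replicate 2 ranges from 6883 to 62076 bases and replicate 1 from 6150 to 18098.

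**Figure D4:**
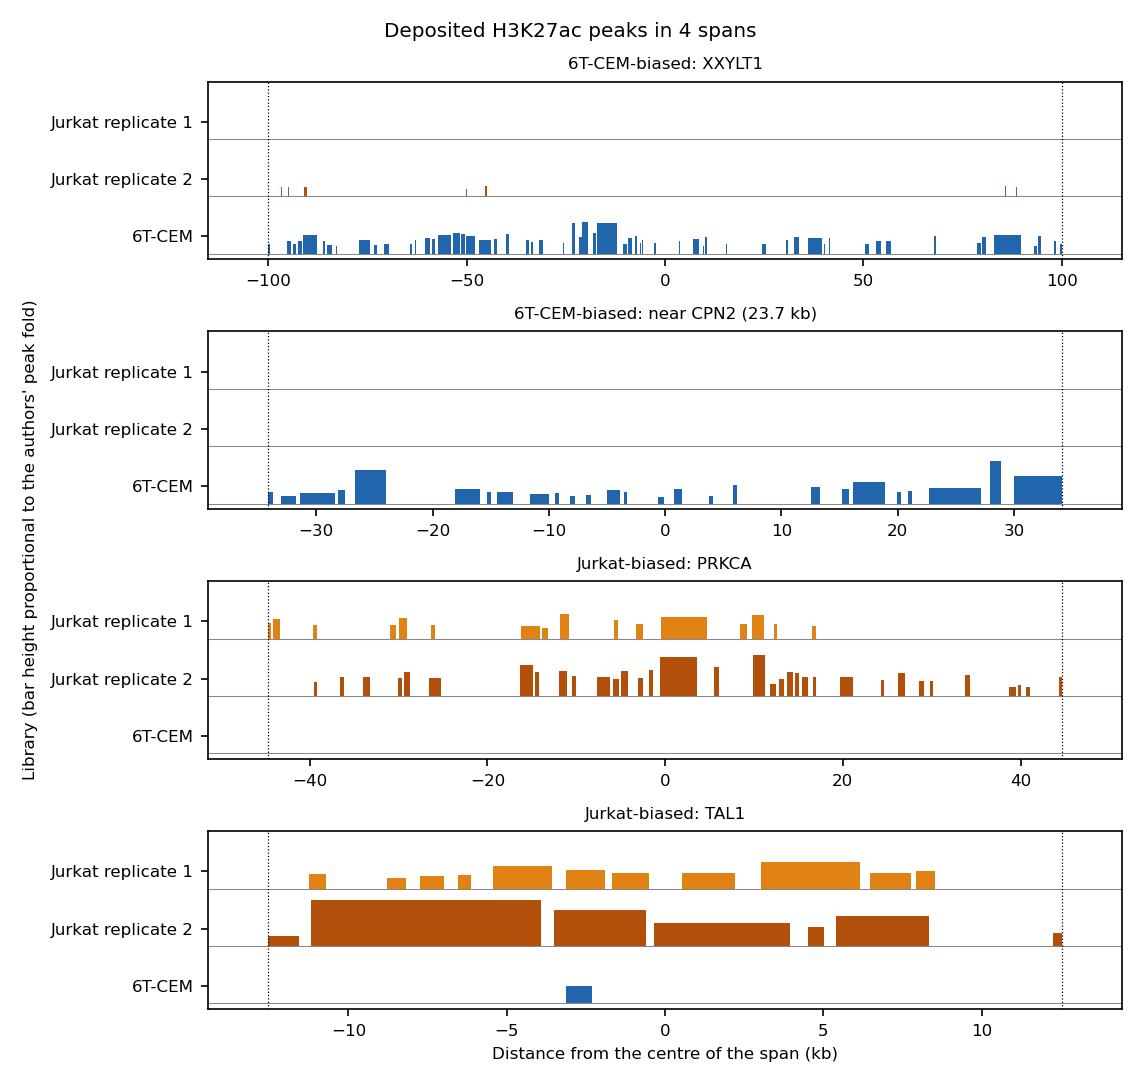
Deposited peaks in 4 spans by distance from the span's centre (kb), 1 row per library, with bar height proportional to the authors' fold and dotted lines at the span's ends. The XXYLT1 span has 59 peaks of 6T-CEM, 7 of Jurkat replicate 2 and 0 of replicate 1. The span near CPN2 has 26 in 6T-CEM and none in Jurkat, the PRKCA span none in 6T-CEM, and the TAL1 span 1.

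Position relative to genes was not used by the rule, but coverage in the other line was. The shares at gene ends below are therefore not independent of the selection. Of the 253 6T-CEM-biased spans, 209 overlapped a coding gene, 143 exactly 1, and 85 lay wholly inside their leading gene, while 44 overlapped none. Within 1 kb of a gene end lay 15.8% of their 6T-CEM-covered bases, against 23% in the 933 other spans with 6 kb or more in 6T-CEM, and 23.5% lay between genes, against 15.4%. Of the Jurkat bases left in the same spans, 28.8% (replicate 1) and 17.4% (replicate 2) lay near gene ends. In the Jurkat-biased spans 13.0% of replicate 1 bases, 4.87% of replicate 2 bases and 30.2% of the 6T-CEM bases were near gene ends, and 19 of 24 overlapped a coding gene. Members in both directions thus had a smaller share at gene ends in the line where they were wide than the 327 spans with 6 kb or more in all 3 lists that were no members, where the shares were 23% (Jurkat replicate 1), 20.5% (replicate 2) and 22.6% (6T-CEM). A gene end lay under a 6T-CEM peak in 91 of the 253 spans, and in 45 of these a gene end, not always the same, lay under a Jurkat peak. No share over other spans was computed for these 2 numbers, so they are no result about the members.

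All 23 chromosomes held a 6T-CEM-biased span. They numbered 25 on chromosome 2 (9.88% of them, beside 6.74% of all 6T-CEM peaks), 23 on chromosome 1 (9.09% beside 9.42%) and 2 on chromosome X (0.791% beside 1.86%), and the fullest 10 Mb bin, at the end of chromosome 14 with the heavy-chain segments, held 9. The Jurkat-biased spans lay on 13 of the 23 chromosomes, at most 3 on any.

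At the limits of the rule the choice was narrow. Just inside the 6 kb minimum lay 6T-CEM-biased spans with 6004, 6023 and 6054 bases in 6T-CEM, and just outside it spans with 5980, 5971 and 5924. The spans nearest to the ratio limit had 33.2%, 33.2% and 33.0% of the 6T-CEM bases in the higher Jurkat library on the inside and 33.3%, 33.4% and 33.5% on the outside. In the Jurkat direction the lower library held 6150, 6518 and 6614 bases just inside the minimum and 5774, 5304 and 5092 just outside, and 6T-CEM held 33.2%, 32.4% and 32.1% of the lower library just inside the ratio and 34.5%, 37.1% and 38% just outside.

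Which members stayed was read over 7 of the 15 other settings, a choice among them made after the values were seen: joining at 5 kb, joining at 20 kb, peaks with −log10 q of 5 or more, lists of equal length, scaled bases, width times fold, and no peaks at gene ends. Under all of them 72 of the 253 6T-CEM-biased and 10 of the 24 Jurkat-biased spans overlapped a span called in the same direction. Of the leading 15 in the 6T-CEM direction 11 were, the exceptions being those of GALNT6, SUFU, CORO2A and FBRSL1. In the Jurkat direction the 10 were the first PRKCA span, TAL1, SMAD6, FRMD4A, GASK1A, SPSB4, MOCS1 and those near PMEPA1, RTL6 and SYK. Scaled bases could remove none of the 24. The spans at ETV5, FOSL2, CD226 and TLE1 and the one nearest to HES1 were among the 72, and none of the other list genes' 6T-CEM-biased spans was. Those at GFI1, IL21R and a DAPK1 span were called in 6 of the 7, those at MYB, CD38 and the other DAPK1 span and those nearest to GATA3 and IKZF1 in 5, that at CD44 in 3, and those at PRKCB and RUNX3 in 2. In the Jurkat direction DNTT, the nearer SYK span and the span within PMEPA1 were called in 6 of the 7, BCL11B and CD1B in 5, and CD3E and IFNAR2 in 3.

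**Figure D5:**
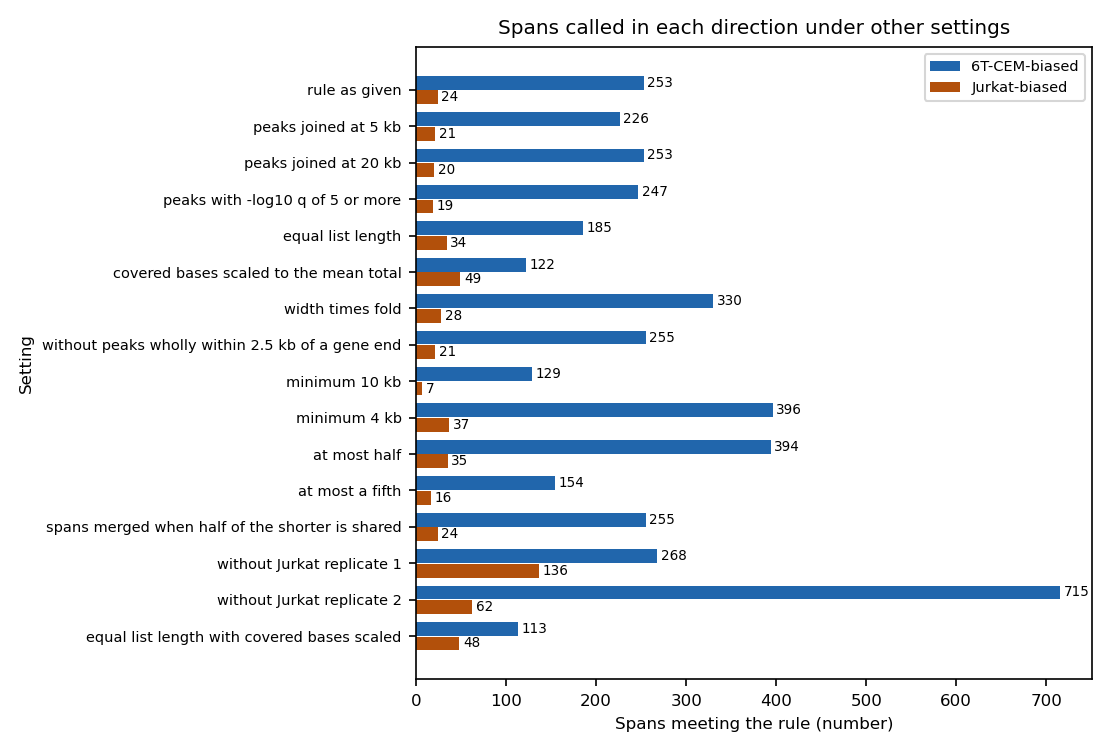
Number of spans meeting the rule in each direction (horizontal axis) under the rule as given and 15 other settings (vertical axis), with the number beside each bar. The 6T-CEM-biased number runs from 113 to 715 and the Jurkat-biased number from 7 to 136, and the former is the greater in every setting. Except where a replicate is left out, the Jurkat direction needs the minimum in both Jurkat lists and the 6T-CEM direction in a single list. The greater number is thus no independent result.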

How the data were processed

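Peak lists of H3K27ac from 2 Jurkat libraries and 1 6T-CEM library were used, 1 list per library. The submitters' processing notes list the tools Bowtie2 2.2.5 and MACS2 2.2.7 and the build hg38 but no options. CUT&Tag is the method in the series text, but the labels' protocol describes sonicated nuclei and an antibody. The control used for peak calling is not stated in the labels. The deposited lists give each peak's fold enrichment (a ratio), −log10 p, −log10 q, a score and the summit's offset, all the authors' own values. Their lowest −log10 q was 2.01, 2.00 and 2.01. They hold no read counts, so depth is unknown, and lists that differ in length can differ in covered bases for that reason.

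Covered bases were the main measure and were not scaled. Spans were called large above the slope-1 point of the ranked sum of width times fold. Genes came from RefSeq GRCh38.p14 (19970 protein-coding), whose table has no strand or exons, so both gene ends were used. Chromosome Y and other contigs were left out. Named spans were the 15 with the widest gap per direction, those at genes of the lists, those at the limits, and those in blank stretches of 500 kb or more. The members and gene lists were chosen with earlier results of these data known. There are 15 alternative settings, 1 of them added after seeing the data (lists of equal length with scaled bases). In simulated lists all 2000 spans were classed as made, and a base-by-base recount of 283 spans of chromosome 21 found 0 differences. Python 3.11.15, NumPy 2.4.6, pandas 2.3.3 and matplotlib 3.10.9 were used.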

Additional observations from a re-analysis of the deposited data

Results flagged for a closer look

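Alternate and unplaced contigs lay outside the rule. Of the 691 spans there, 15 met its limits in the 6T-CEM direction and 0 in the Jurkat direction. They drew attention because these contigs enter no comparison of the report. The alternate contigs of chromosome 14 held 6 of the 15, on a contig with 39 and 55 peaks of the Jurkat replicates and 150 of 6T-CEM. Whether these spans repeat members on the main chromosomes was not tested.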

How the results depend on the processing

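The main numbers were 253 6T-CEM-biased and 24 Jurkat-biased spans. Scaling covered bases to the mean total gave 122 and 49, and doing so on lists of equal length, chosen after seeing the data, gave 113 and 48. A minimum of 10 kb gave 129 and 7, and one of 4 kb gave 396 and 37. Allowing 1 base in the lower line for every 2 gave 394, and 1 for every 5 gave 154, in the 6T-CEM direction. Leaving out each Jurkat replicate in turn gave 268 to 715 and 62 to 136, with 715 without replicate 2 and 136 without replicate 1. In the other settings the numbers stayed within 1.5 times: joining at 5 or 20 kb, −log10 q of 5 or more, lists of equal length (185 and 34), width times fold, leaving out peaks at gene ends, and merging only at a shared overlap. The cause was not tested. No log2 ratio of the 31 named 6T-CEM-biased and 24 Jurkat-biased spans changed sign. The rule had chosen each span for a gap of 3-fold or more, so the kept sign is no independent result. The lowest log2 ratio in the 6T-CEM direction was 0.05, at RUNX3 with joining at 20 kb. No paired analysis was possible because 6T-CEM has 1 library. Depth is unknown, so no limit from counts can be given.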
